A study of Mus musculus with 6 samples.

Results

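A set of 513 annotated mouse loci carried more RNA reads from the strand opposite to the annotated gene than from the gene's own strand in primary microglia treated with FTY720, with or without lipopolysaccharide (LPS). They were chosen from the 24411 gene rows of 6 libraries by their reads. A row entered when its opposite-strand reads, summed over all 6 libraries, reached at least 20 and exceeded its sense reads. Rn45s, Lars2 and Mir6236 were left out, because they collect reads of ribosomal RNA. Of the 2022 rows with at least 20 opposite-strand reads, 1509 had as many or more sense reads and stayed outside.

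Microglia are the macrophages that reside in the brain. They were grown from the pooled brains of 12 ICR mice, 3 days old, and shaken off mixed glial cultures, and more than 92% of the cells carried CD11b by flow cytometry. One group of 3 libraries received FTY720 (fingolimod, a sphingosine analogue) at 1 µM for 4 h. The other group of 3 libraries received FTY720 at 1 µM together with LPS, the bacterial ligand of Toll-like receptor 4, at 10 ng/ml for 4 h. Both groups carry FTY720, so every comparison below is LPS on top of FTY720. The labels give independent RNA samples, with no statement on separate cultures, so p-values measure the spread between RNA samples.

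A directional RNA-seq library keeps the strand of each RNA, so that a read can be counted for the gene it lies in or against it. Reads against a gene are known to arise where a neighbour on the other strand shares its exons, where a neighbour is transcribed past its annotated end, or where an antisense or divergent RNA is made; a small share comes from imperfect strand marking. LPS is known to induce cytokine, chemokine and interferon-response genes in microglia through NF-kB and interferon regulatory factors. Long non-coding RNAs that lie against such genes are part of the annotated transcriptome of macrophages.

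The libraries held 2431775 to 3454647 sense gene reads, of which the 3 rows left out took 28.8% to 59.0%, and 34881 to 48702 opposite-strand gene reads. Without those rows, opposite-strand reads made up 2.21% to 2.49% of the gene reads of a library. In 537 rows with at least 1000 sense reads and no annotated gene on the other strand within 10 kb, the median share of opposite-strand reads was 0.72%. All markers of microglia, astrocytes, neurons, the oligodendrocyte lineage and fibroblasts had sense reads in both groups. In CPM, reads scaled to the sense gene reads of a library, summed microglial markers stood at 1563 to 2781 with FTY720 and at 2602 to 2690 with LPS. Summed oligodendrocyte-lineage markers stood at 236 to 410 and at 127 to 143 CPM, and summed neuronal markers at 165 to 345 and at 80.2 to 105 CPM. Summed astrocyte markers stood at 84.6 to 132 and at 87.8 to 128 CPM. Those of fibroblasts and mural cells stood at 121 to 144 and at 125 to 162 CPM. The scale of these values includes the 3 rows left out.

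The values that chose the loci are given here as a description. Opposite-strand reads ranged from 20 to 4314 per locus with a median of 59, so that counting error is large for most of them. A total of 158 loci had at least 100 reads and 219 had 20 to 49. The median share of opposite-strand reads in a locus was 89.6%, 250 loci reached at least 90%, and 27 had no sense read at all. Together the loci held 73729 of the 232245 opposite-strand gene reads, or 31.7%. Opposite-strand reads outnumbered sense reads in every library at 324 loci. At 377 loci the rule was met in each group by itself, with at least 10 reads; the other 136 needed the sum of both groups or entered through 1 group. At the edge of the rule stood Ubxn8, with 184 opposite-strand and 182 sense reads, and Chid1, with 167 and 165. Just outside were 5830432E09Rik, with 87 reads on each strand, and Gatc, with 33 on each.

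**Figure D1:**
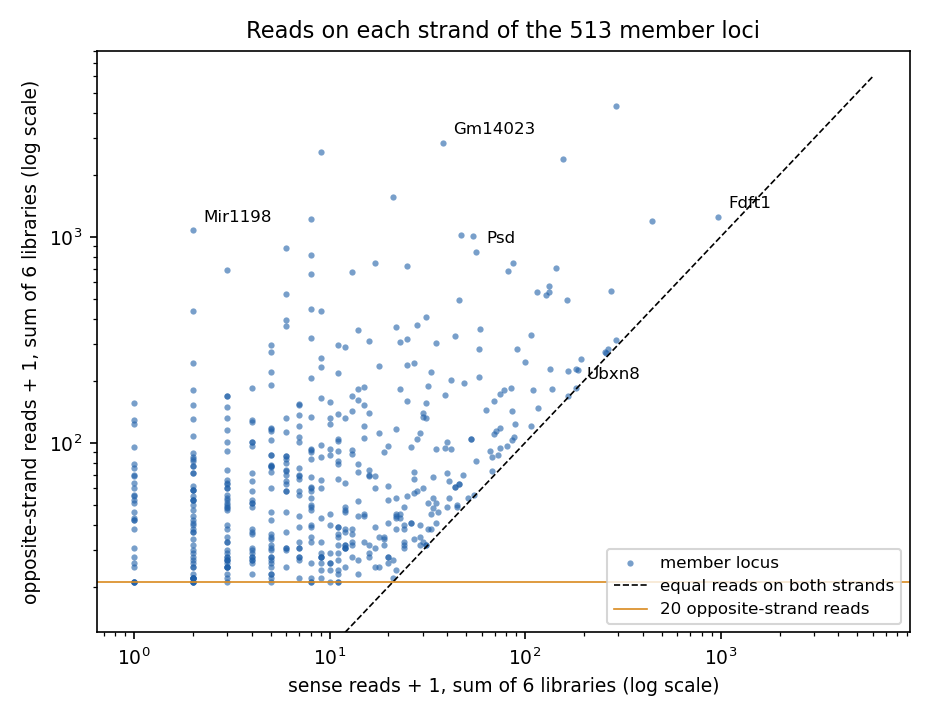
Each point is 1 of the 513 loci, with its sense reads on the x axis and its opposite-strand reads on the y axis, both summed over 6 libraries, plus 1, on log scales. All points lie above the dashed line of equal reads and on or above the line at 20 opposite-strand reads, because the rule placed them there; the highest point has 4314 opposite-strand reads.

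The stretch below shows how 1 piece of the genome feeds 2 rows. It lies at chr2:129306603-129306692 (GRCm38, the same coordinates as mm10), in a coding exon of Il1a, which encodes the cytokine interleukin 1 alpha and lies on the minus strand. The same bases form part of an exon of Gm14023, a non-coding RNA on the plus strand, and the first line gives the strand of Il1a and the next line that of Gm14023.
Il1a: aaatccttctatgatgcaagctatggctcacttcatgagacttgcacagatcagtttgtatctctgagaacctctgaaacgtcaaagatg
Gm14023: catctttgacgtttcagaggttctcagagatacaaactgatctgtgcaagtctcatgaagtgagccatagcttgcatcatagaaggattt
The second line is the reverse complement of the first. A read with the letters of the Il1a line is a sense read of Il1a and an opposite-strand read of Gm14023. The longest run of shared exon bases that is coding in Il1a holds 222 bases.

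Among the loci were 7 microRNA rows, and 6 of them had mature sequences in RefSeq (GRCm38.p6). The sequences of the 3 rows that rose with LPS are shown to make clear that the counted reads do not carry them. Seed bases 2 to 8 are in capitals.
mmu-miR-1198-5p: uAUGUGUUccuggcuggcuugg
mmu-miR-1198-3p: aAGCUAGCcucuaacucauggc
mmu-miR-6381: cAGGAUGCuggugacaugagu
mmu-miR-6244: gGGGGCGUggaauuaucgggu
Mir6244 strand of the reads: acccgataattccacgccccc
The last line is the reverse complement of mmu-miR-6244 at chr9:52115653-52115673, on the strand from which its row drew 90 of 92 reads, and it lies in a coding exon of Zc3h12c. No pair of the 7 mature sequences shared a seed. The reverse complement of a whole hairpin was found in annotated transcripts of Zc3h12c for Mir6244, of Rab22a for Mir6340 and of Zscan26 for Mir1896.

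The positions of the loci were not used by the rule. Positions were found in GENCODE M21 for 495 loci, and 18 had no match there. At 414 loci, 83.6% of those placed, an exon of a gene on the other strand overlapped an exon of the row's gene. This share was 53.0% among the other rows with at least 20 opposite-strand reads and 24.2% among all rows placed. The other classes were small. The reads' strand held a gene whose body, but no exon, overlapped the locus at 22 loci, a gene ending within 10 kb before the locus at 41 and a gene starting within 10 kb past it at 3. At 15 loci no gene lay on that strand within 10 kb. Loci with an exon overlap held 86.1% of the members' opposite-strand reads.

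Among overlapping pairs of all kinds, 252 met tail to tail, with the 3′ ends of both genes over each other, and 81 met head to head. The locus lay inside its neighbour in 67 pairs and the neighbour inside the locus in 36. The shared exon bases ranged from 3 to 4590 with a median of 380. Of the loci, 339 were annotated as protein coding and 98 as antisense RNA. The 41 loci downstream of a gene end lay 7 to 6408 bp past it, with a median of 678 bp.

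**Figure D2:**
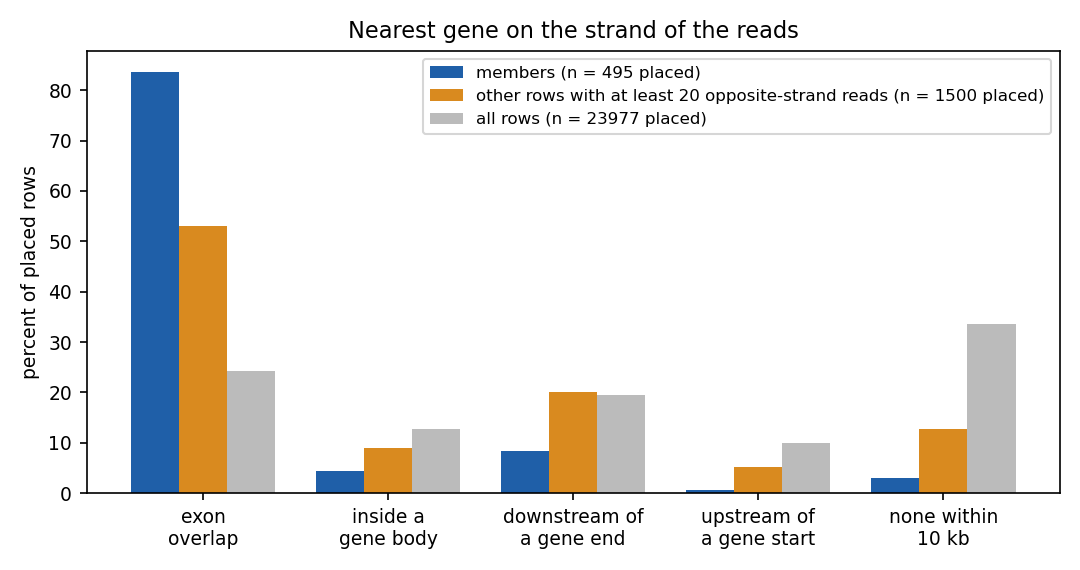
Bars give the percentage of placed rows in each position class for the 495 placed loci, for 1500 other rows with at least 20 opposite-strand reads and for 23977 rows in all. Exon overlap is the class of 83.6% of the loci, against 53.0% and 24.2% in the other sets.

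The authors' counts carry a further sign of shared exons. A read in exons of 2 genes on opposite strands is counted once for each in the stranded columns and for neither in the strandless column. At the median locus 62.5% of the reads counted by strand were absent from the strandless column. The share was at least 90% at 97 loci and 0 at 118. The loci were divided at 50%, a value chosen after the data were seen, into 295 whose reads lay mostly in exons of another row and 218 whose reads lay mostly outside them.

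With LPS, opposite-strand reads rose at 114 of the 513 loci and fell at 30, or 28.1% called. Over all 2022 rows tested, 18.4% were called, 16.3% higher and 2.18% lower (edgeR quasi-likelihood test, adjusted p under 0.05). Of the called loci, 89 rose and 25 fell at least 2-fold. The median log2 fold change was 0.22 among the loci and 0.38 over all rows. The libraries of the groups did not overlap at 203 loci, or 39.6%, against 33% of all rows. Of the calls, 72 higher and 19 lower were at the 377 loci that met the rule in each group by itself. The other 136 loci gave 42 and 11, and some of those entered only through the group where they were high.

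The balance of higher and lower calls depended on the scaling. The main test scaled opposite-strand counts by the sense reads of each library. When they were scaled by their own TMM factors (edgeR's normalization, which centres the median row near 0), the loci gave 64 higher and 59 lower calls, beside 9% and 5.44% of all rows, and the median of all rows was −0.02. The share of higher calls was then 52.0%, against 79.2% in the main test. The calls that held under both scalings were 64 higher and 30 lower. Relative to the median of all rows, 296 of the 513 loci lay below it.

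The divided sets differed in their counts, and the difference was not tested. Among the 295 loci with reads mostly in exons of another row, 52 rose and 21 fell, with a median log2 fold change of 0.01. Among the 218 with reads mostly outside such exons, 62 rose and 9 fell, with a median of 0.53. Over all rows 16.3% were called higher and 2.18% lower, with a median of 0.38. A rise was built in where the rule was met only through the LPS group, as at Mki67, Il7 and Egfr among the 218 and Gm38426 and Mir6381 among the 295. Likewise, a fall was built in where it was met only through the FTY720 group, as at Fam196b among the 218 and Rarres2 among the 295. Of the 41 loci downstream of a gene end 12 were called, all of them higher, beside 16.3% of all rows called higher. Over all rows 88.2% of the calls were higher. Some of the 12, such as Tmprss2, Clec9a, Cecr6 and Rtbdn, met the rule only through the LPS group, which builds in a rise.

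**Figure D3:**
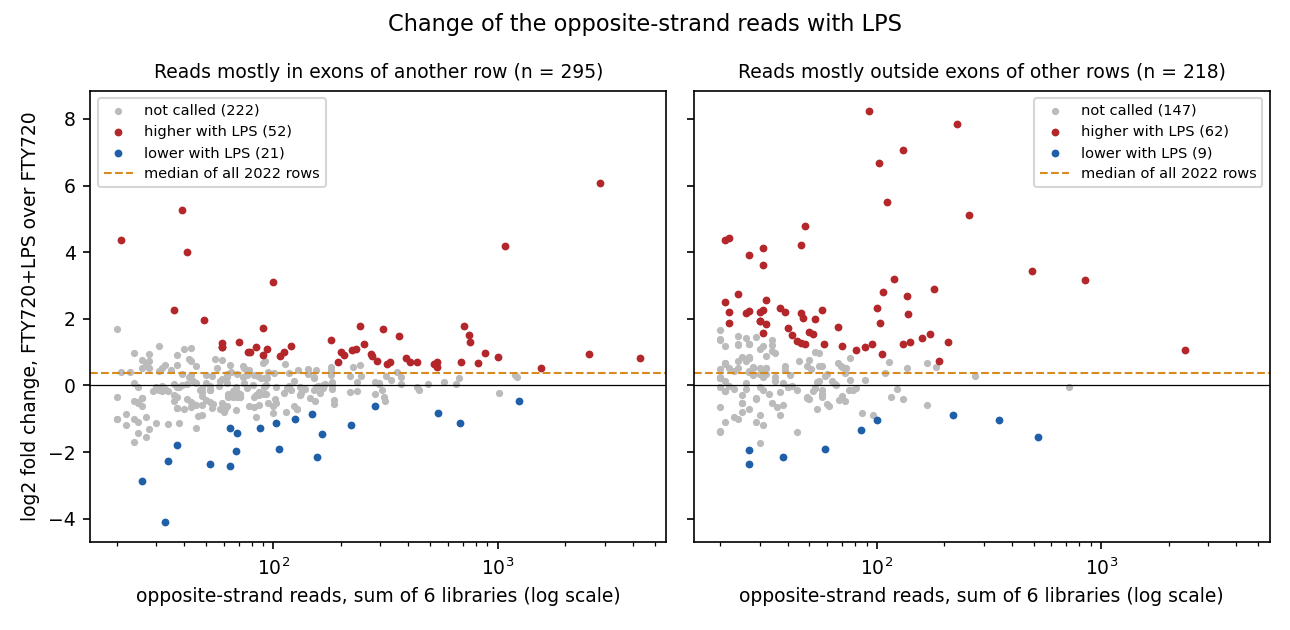
Each point is a locus, with its opposite-strand reads summed over 6 libraries on the x axis (log scale) and the log2 fold change with LPS on the y axis; the left panel holds the 295 loci with reads mostly in exons of another row and the right panel the other 218. Red and blue mark loci called higher and lower, and the dashed line is the median of all 2022 rows, 0.38.

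The locus with the largest response among those that share exons with a tested neighbour was Gm14023. Its opposite-strand reads numbered 15, 16 and 29 with FTY720 and 1070, 975 and 756 with LPS. Every LPS library was far above every FTY720 library, and in CPM, here scaled to effective library sizes, the means were 5.76 ± 0.975 and 399 ± 17.3 (SD, n = 3 each). The log2 fold change was 6.08 ± 0.18 (SE, edgeR adjusted p = 3.47e-61), beside 5.83 ± 0.15 for the sense reads of Il1a. On its own strand Gm14023 had 0 reads in each FTY720 library and 11, 12 and 14 with LPS.

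AV051173 had no GENCODE match. RefSeq places it on the minus strand at chr4:116684962-116686022, a span that holds 279 exon bases of Prdx1, the peroxidase peroxiredoxin 1, on the plus strand. Its row held 258, 320 and 536 opposite-strand reads with FTY720 and 541, 488 and 422 with LPS, against 8 sense reads in all. The log2 fold change was 0.95 ± 0.13 (edgeR adjusted p = 4.46e-09), and that of Prdx1 was 0.95 ± 0.12. The call was lost with total sense reads as the scale (0.61, adjusted p = 0.231).

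Reads against Snx22, a sorting nexin, lie over the end of Ppib, the endoplasmic reticulum chaperone cyclophilin B. They rose by 0.52 ± 0.14 on the log2 scale (edgeR adjusted p = 0.00341), and the sense reads of Ppib rose by 0.48 ± 0.11. The call at Snx22 was lost with the opposite-strand TMM factors (0.12, adjusted p = 0.671), with total sense reads (0.18, adjusted p = 0.806) and with no filter on reads (adjusted p = 0.0544).

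Tmem132a overlaps the end of Slc15a3, a lysosomal transporter of peptides and histidine. It held 297, 309 and 356 opposite-strand reads with FTY720 and 530, 474 and 406 with LPS, with every LPS library above every FTY720 library. The log2 fold change was 1.08 ± 0.13 (edgeR adjusted p = 4.16e-11), lost with total sense reads as the scale (0.77, adjusted p = 0.0897). At this locus 16.5% of the reads were absent from the strandless column, although 1541 exon bases are shared in GENCODE.

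Of the 10 loci with the most reads, 3 did not pass the test. Tsix, the antisense RNA of Xist, which silences the X chromosome, had 223, 197 and 249 reads from the Xist strand with FTY720 and 204, 188 and 158 with LPS. Its log2 fold change was 0.24 ± 0.15 (edgeR adjusted p = 0.276), and its sign turned with the opposite-strand TMM factors (−0.15) and with total sense reads (−0.07). Pltp, which encodes phospholipid transfer protein and overlaps the lysosomal protease gene Ctsa, had a log2 fold change of 0.32 ± 0.15 (adjusted p = 0.123). With the opposite-strand TMM factors it was −0.07, and without FTY720 replicate 2 it was 0.49 (adjusted p = 0.0237). At 3110062M04Rik, against Tmem140, it was −0.23 ± 0.16 (adjusted p = 0.336), and −0.64 with the opposite-strand TMM factors (adjusted p = 0.00294).

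Fdft1, the squalene synthase of the cholesterol pathway, moved unlike its neighbour. Its opposite-strand reads fell from 219, 294 and 320 with FTY720 to 138, 154 and 125 with LPS, and the groups did not overlap. The log2 fold change was −0.46 ± 0.15 (edgeR adjusted p = 0.0179). Ctsb, the lysosomal protease cathepsin B, whose 3′ end lies over that of Fdft1, rose by 0.50 ± 0.11. The sense reads of Fdft1 itself fell by 0.81. The call on the opposite-strand reads was lost without FTY720 replicate 2 (−0.29, edgeR adjusted p = 0.231), FTY720_LPS replicate 1 (−0.33, 0.246) or FTY720_LPS replicate 3 (−0.47, 0.0559). DESeq2 (0.0983), no filter (0.181) and total sense reads (0.1001) also took the adjusted p above the threshold.

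Of 93 genes known to respond to LPS, listed with earlier results of these data known, 80 were tested on the sense strand, where 75 rose and 3 fell; of the 10124 genes tested there 46% were called, 23.3% higher and 22.7% lower. Their median log2 fold change was 3.54, against −0.04 over all genes tested. Of the 513 loci, 6 were such a gene or had one as neighbour. They were Gm14023 beside Il1a, described above, Psd, Zmynd15, Tmprss2, Mir6381 and Il10. Opposite-strand reads rose at all 6, beside 16.3% of all 2022 rows called higher. Tmprss2, Mir6381 and Il10 met the rule only through the LPS group, so their rise was built in and is a description.

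Psd, an exchange factor for the small GTPase Arf6, lies at chr19:46312087-46327156 on the minus strand and shares 299 untranslated exon bases with Nfkb2, which encodes the p100 and p52 subunits of NF-kB. It held 39, 40 and 38 opposite-strand reads with FTY720 and 239, 261 and 228 with LPS. All LPS libraries were above all FTY720 libraries. The log2 fold change was 3.17 ± 0.18 (edgeR adjusted p = 5.48e-33), beside 3.43 ± 0.13 for Nfkb2. A share of 7.22% of the reads at Psd was absent from the strandless column.

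Zmynd15 overlaps Cxcl16, a transmembrane chemokine, head to head. Its reads were 22, 29 and 33 with FTY720 and 36, 44 and 36 with LPS, with a log2 fold change of 1.01 ± 0.25 (edgeR adjusted p = 0.00107) beside 1.35 ± 0.13 for Cxcl16. This call was lost with the opposite-strand TMM factors (0.61, adjusted p = 0.0919) and with total sense reads (0.70, adjusted p = 0.207).

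Tmprss2, a serine protease gene, lies 3782 bp past the annotated end of Mx2 in the direction of the reads, an interferon-induced GTPase. It held 1, 0 and 1 reads with FTY720 and 15, 18 and 13 with LPS. The ratio of summed reads, scaled by effective library size, was 33.4 (exact 95% counting interval 8.75 to 284). The sense reads of Mx2 had a log2 fold change of 6.10 ± 0.26. Mir6381 lies on the other strand of Gbp2, an interferon-inducible GTPase, and overlaps 24 of its exon bases. It went from 1 read in each FTY720 library to 17, 11 and 10 with LPS, a ratio of 18.4 (5.84 to 93.3), beside a log2 fold change of 5.03 ± 0.23 for Gbp2.

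Il10 encodes the anti-inflammatory cytokine interleukin 10, and no annotated gene lay on the reads' strand within 10 kb. Opposite-strand reads were 0, 1 and 0 with FTY720 and 12, 4 and 5 with LPS. The ratio was 30.5 (4.91 to 1263). Sense reads numbered 4 in all, each in an LPS library.

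Mir1198 stood out among the microRNA rows by its reads. It held 20, 18 and 42 opposite-strand reads with FTY720 and 366, 340 and 293 with LPS, and 1 sense read. The CPM means were 7.57 ± 2.09 and 143 ± 5.28 (SD, n = 3 each), and the log2 fold change was 4.19 ± 0.18 (edgeR adjusted p = 2.67e-43). GENCODE M21 places the gene at chrX:7807101-7807221 on the plus strand, with no gene on the minus strand within 10 kb. Yet 100% of its reads were absent from the strandless column, which is how reads in exons of another row are counted. Which row shares its bases in the authors' annotation is not known here, so the source of these reads cannot be named.

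Mir6244 lies in a coding exon of Zc3h12c, a member of the Regnase family of RNA-degrading proteins. Its row, outside the naming rule and picked after its values were seen, held 8, 8 and 11 reads with FTY720 and 30, 21 and 12 with LPS, with a log2 fold change of 1.74 ± 0.35 (edgeR adjusted p = 3.64e-05). That of Zc3h12c was 1.73 ± 0.14. As the printed reverse complement shows, these reads match the messenger strand of Zc3h12c and not the microRNA. The other 4 microRNA rows did not pass the test.

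Several loci had almost no opposite-strand read without LPS. Il7, the lymphocyte growth factor interleukin 7, held 0 reads in each FTY720 library and 39, 26 and 27 with LPS. This is at least 44.6-fold higher, against a floor of 3 reads over the group. The locus overlaps Gm16685, an annotated antisense RNA that starts head to head with it and has no row in the tables, and 0% of its reads were absent from the strandless column. Sense reads of Il7 numbered 7 in all.

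Mki67, which encodes the proliferation marker Ki-67, lies at chr7:135689784-135716361 on the minus strand. Plus-strand reads numbered 1, 0 and 0 with FTY720 and 73, 79 and 75 with LPS, a ratio of 330 (58.6 to 13093). Its sense reads were 20, 32 and 25 and then 22, 14 and 20, with a log2 fold change of 0.07 (edgeR adjusted p = 0.875). The change was therefore seen on 1 strand of the locus. On the plus strand lie Gm45240, a provisional transcript inside the gene that has no row, and Ptpre, a tyrosine phosphatase gene that ends 3491 bp before the locus. Sense reads of Ptpre had a log2 fold change of 1.57 ± 0.13.

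Egfr, the receptor of epidermal growth factor, held 0, 0 and 1 opposite-strand reads with FTY720 and 40, 31 and 30 with LPS, a ratio of 147 (25.8 to 5857). Its sense reads numbered 43 and 42 over the groups, with a log2 fold change of 0.49 (edgeR adjusted p = 0.228). The antisense RNA Egfros lies inside the gene and has no row. Eldr, a long non-coding RNA on the same strand as these reads, ends 16996 bp before Egfr. Reads lay upstream of the start of Eldr as well. Fbxo48, an F-box protein gene whose start is 93 bp from that of Eldr, held 1, 0 and 2 opposite-strand reads with FTY720 and 45, 26 and 37 with LPS. The ratio was 52.3 (17.4 to 258), and the sense reads of Eldr had a log2 fold change of 5.14 ± 0.35. Fbxo48 met the rule only through the LPS group, so its rise is a description.

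Ttc21a, a gene of ciliary transport, held 0, 0 and 1 opposite-strand reads with FTY720 and 33, 37 and 60 with LPS, a ratio of 189 (33.3 to 7522). On the reads' strand it lies in the body of Cx3cr1, the fractalkine receptor of microglia, whose sense reads had a log2 fold change of 1.10 ± 0.18. Csrnp1, a nuclear protein gene on the same strand, ends 3370 bp before Ttc21a and had 4.08 ± 0.15. Which of these RNAs the reads came from was not tested.

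Rbpjl overlaps Matn4, a matrix protein gene, head to head and held 2, 6 and 2 reads with FTY720 and 83, 76 and 89 with LPS. Its log2 fold change was 5.12 ± 0.32 (edgeR adjusted p = 4.16e-29), and that of Matn4 was 3.91 ± 0.24. Sdc4, a heparan sulfate proteoglycan gene on the reads' strand, ends 8799 bp before Rbpjl, and its 25420 sense reads had a log2 fold change of 6.57 ± 0.14. Which of these RNAs the reads at Rbpjl came from was not tested. Gm38426, which RefSeq places over 3174 exon bases of the kinase gene Mast1, held 0, 1 and 0 reads and then 11, 17 and 10, a ratio of 55.3 (9.33 to 2239). It met the rule only through the LPS group, so its rise is a description. Sense reads of Mast1 had a log2 fold change of 3.95 ± 0.27.

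The 36 loci whose neighbour has no row in the tables include Il7, Egfr and Mki67. Opposite-strand reads rose at 13 of them and fell at 0 (edgeR, adjusted p under 0.05), beside 16.3% of all 2022 rows higher and 2.18% lower. Il7, Egfr and Mki67 met the rule only through the LPS group, so their rise is a description. DESeq2 called 8 higher and 0 lower, and at an unadjusted edgeR p under 0.05 the counts were 15 and 1. Pycard, the inflammasome adaptor, was among them and is named after its values were seen. It held 5, 9 and 4 opposite-strand reads with FTY720 and 34, 24 and 30 with LPS, while its sense reads were 27, 17 and 25 and then 6, 3 and 9. The log2 fold changes were 2.79 ± 0.36 and −1.39. Pycard too met the rule only through the LPS group, and no test is given for it.

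The 10 loci named for the lowest fold change held 26 to 157 opposite-strand reads each. Of these, Phospho1, Rarres2, B430010I23Rik, Fam196b, Dlx6 and Zim3 met the rule only through the FTY720 group. Slc26a1 had fewer than 10 opposite-strand reads with LPS, too few to meet the rule in that group by itself. Either way a fall is built in, so the values of these loci are a description. Phospho1, a phosphatase of bone mineralisation that overlaps Abi3, held 11, 7 and 14 opposite-strand reads with FTY720 and 1, 0 and 0 with LPS. The reads were lower by a ratio of 22.0 (3.68 to 896), and the log2 fold change of Abi3 was −2.41 ± 0.37. Card14 overlaps the lysosomal sulfatase gene Sgsh. It held 42, 45 and 49 reads and then 3, 9 and 9, with a log2 fold change of −2.14 ± 0.33 (edgeR adjusted p = 7.33e-08) beside −2.07 ± 0.27 for Sgsh.

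Rarres2, which encodes the chemoattractant chemerin and overlaps Lrrc61, held 14, 13 and 30 reads and then 2, 3 and 2. The antisense RNA B430010I23Rik, inside the gene Mtus1, held 15, 18 and 13 and then 3, 2 and 1. Their log2 fold changes were −2.42 ± 0.49 and −2.36 ± 0.54, and those of Lrrc61 and Mtus1 were −1.67 ± 0.31 and −2.19 ± 0.21. LOC100503496, which could not be placed, held 22, 11 and 25 reads and then 3, 6 and 1.

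Dlx1as lies against Dlx1, and Dlx6 against the RNAs Dlx6os1 and Dlx6os2; the Dlx genes encode homeobox factors of forebrain interneuron precursors. Opposite-strand reads of Dlx1as were 23, 24 and 43 with FTY720 and 5, 3 and 8 with LPS, with a log2 fold change of −1.92 ± 0.38 (edgeR adjusted p = 2.53e-05) beside −1.70 ± 0.27 for Dlx1. Those of Dlx6 were 6, 9 and 9 and then 1, 1 and 1, a ratio of 5.50 (1.67 to 28.5). The 586 sense reads of Dlx6os1 had a log2 fold change of −1.64 ± 0.19. Zim3, against the neuronally expressed gene Usp29, went from 9, 7 and 8 reads to 1, 1 and 0. The summed neuronal markers, 165 to 345 CPM with FTY720 and 80.2 to 105 with LPS, moved the same way as these 3 loci, and their part in the result was not tested. In bulk RNA, fewer cells of a type and less RNA per cell cannot be told apart.

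The calls at Dlx6, Fam196b and Slc26a1 did not hold with every library left out. Fam196b lies in the body of Dock2, an activator of Rac. Its log2 fold change was −2.14 ± 0.63, or −1.58 without FTY720 replicate 1, where the call was lost. Slc26a1, a sulfate transporter against the lysosomal enzyme gene Idua, had −1.92 ± 0.72, a description because the rule built in its fall. Leaving out any library but FTY720 replicate 3 ended that call, with log2 fold changes of −2.29 to −1.47 and adjusted p-values of 0.0629 to 0.252. The call at Dlx6 (−2.35 ± 0.75) ended without FTY720 replicate 2 (−2.14), FTY720_LPS replicate 1 (−2.23) or FTY720_LPS replicate 2 (−2.33), and with no filter. The call at Fam196b was also lost with DESeq2. For Slc26a1 the adjusted p was 0.217 with DESeq2 and 0.288 with edgeR and no filter.

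**Figure D4:**
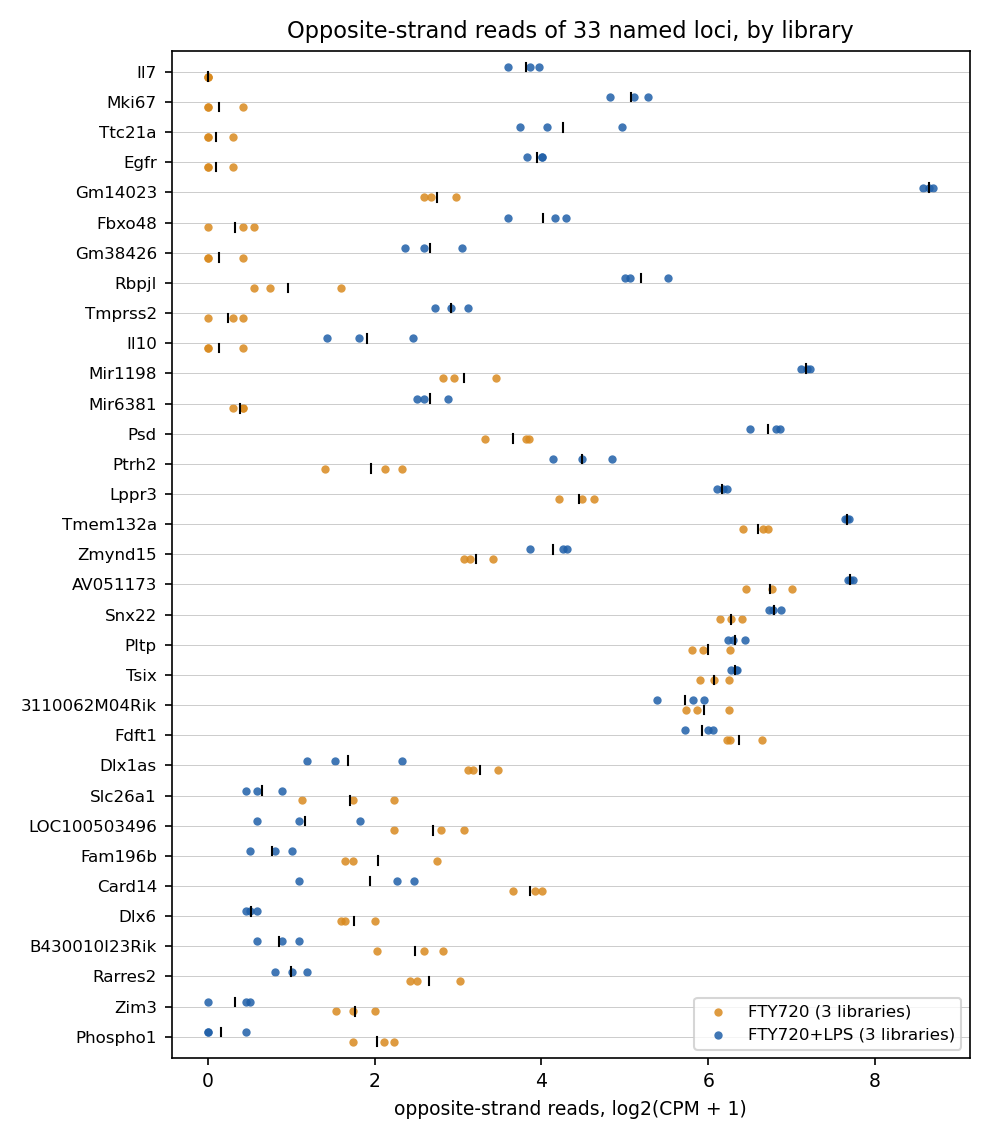
Points give the opposite-strand reads of 33 named loci in each library as log2(CPM + 1), with FTY720 in orange and FTY720+LPS in blue, and black ticks mark the mean of the 3 libraries of a group. Loci are ordered by fold change; Il7, with 0 reads in each FTY720 library, is at the top and Phospho1 at the bottom, and the groups overlap at Pltp and 3110062M04Rik.

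A second test compared the strands of each locus within the libraries, as the change in the ratio of opposite-strand to sense reads. The rule used that ratio summed over both groups, so loci that entered through 1 group could not be free of a change, and the counts are a description. The ratio rose at 34 loci and fell at 15, beside 10.7% of all 2022 rows called, 8.65% higher and 2.08% lower. At the 377 loci that met the rule in each group the counts were 15 and 10. Both tests called 36 loci.

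The 5 loci named from this comparison were Mki67, Ptrh2, Lppr3, Psd and Egfr, and their values are a description with no test. Mki67, Egfr and Ptrh2 met the rule only through the LPS group, so that a higher ratio there was built in. At Mki67 the log2 change of the ratio was 7.76 ± 0.67, and at Egfr it was 6.17 ± 0.81. Lppr3 and Psd met the rule in both groups. Lppr3 overlaps Ptbp1, a splicing repressor, and held 64, 71 and 74 opposite-strand reads with FTY720 and 181, 167 and 147 with LPS. Its sense reads were 37, 28 and 46 and then 16, 11 and 5, so the strands moved apart, by 3.03 ± 0.34 on the log2 scale. The opposite-strand reads rose by 1.77 ± 0.17 and the sense reads of Ptbp1 by 1.83 ± 0.11.

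Ptrh2, a mitochondrial peptidyl-tRNA hydrolase gene, also moved apart. Its opposite-strand reads were 12, 10 and 7 with FTY720 and 57, 39 and 55 with LPS, and its sense reads were 18, 19 and 51 and then 9, 8 and 4. The log2 change of the ratio was 4.35 ± 0.48. At Psd it was 3.91 ± 0.47. On the sense strand 50 of the 513 loci had reads enough to be tested, and 4 rose and 9 fell, while 46% of all 10124 genes were called there (23.3% higher, 22.7% lower).

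The opposite-strand reads of a locus largely moved with the sense reads of its neighbour. Of 363 loci with an exon overlap and a tested neighbour, the log2 fold changes differed by a median of 0.25, and at 334 they lay within 1 log2 unit. The locus was called at 97 of the 363, and the neighbour was called higher at 105 and lower at 70. Over all 10124 genes tested on the sense strand 46% were called. Both locus and neighbour were called at 90 loci and in the same direction at 88. Across these loci Spearman's rho was 0.75 and Pearson's r 0.83, a description only, because stranded counting can count the same reads for both rows and all values come from the same 6 libraries. The 60 loci of the other position classes gave a median difference of 0.67, with 37 within 1 log2 unit, and all 15 pairs in which both were called moved the same way.

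Some pairs with many reads are given here as examples, picked after their values were seen and outside the naming rule. Particl, an RNA against the methionine adenosyltransferase gene Mat2a, rose by 1.51 and Mat2a by 1.48. E230016M11Rik rose by 1.47 and Gadd45a, a growth arrest gene, by 1.68. Mrps25 fell by 0.82 and Nr2c2, a nuclear receptor gene, fell by 0.78, and Tctn1 fell by 1.12 beside Hvcn1, a proton channel gene, which fell by 1.30. Mid1, an E3 ubiquitin ligase gene of the X chromosome, rose by 3.43 and the RNA G530011O06Rik on its other strand by 3.62. Tmem132a and Fdft1 are pairs with many reads where locus and neighbour differed, as given next.

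The difference between locus and neighbour was tested for 437 loci, a test added after the data were seen. At 8 loci the opposite-strand reads rose more, or fell less, than the neighbour, and at 3 the reverse held, while 4.92% of the 1342 rows tested were called, 4.32% higher and 0.596% lower. Of the 8, Ttc21a, Ptrh2, 1810043G02Rik, Tubd1, Xrcc3 and Rtbdn met the rule only through the LPS group, which builds in a larger rise, and their values are a description with no test. Opposite-strand reads exceeded the change of the neighbour by 5.94 ± 0.59 on the log2 scale at Ttc21a over Cx3cr1, by 2.82 ± 0.29 at Ptrh2 over Cltc and by 2.76 ± 0.36 at 1810043G02Rik over Pfkl. Cltc, the clathrin heavy chain gene, ends 1894 bp before Ptrh2 and had a log2 fold change of 0.08 ± 0.11. On the other side, Vmp1, an autophagy gene, starts 149 bp past Ptrh2 on the reads' strand and had 0.70 ± 0.15.

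At Tubd1, reads ran against a tubulin gene whose nearest gene on their strand, the kinase gene Rps6kb1, starts 186 bp past it. The reads were 0, 1 and 1 with FTY720 and 8, 9 and 12 with LPS, and the difference was 3.46 ± 0.66. At Rtbdn over Rnaseh2a it was 3.34 ± 0.64. On the reads' strand Junb ends 17881 bp before Rtbdn and had a log2 fold change of 3.13 ± 0.11. Mast1 starts 9632 bp past Rtbdn on that strand and had 3.95 ± 0.27. Which RNA the reads at Rtbdn came from was not tested. At Xrcc3 over Klc1 the difference was 2.08 ± 0.45, or 1.71 to 2.38 with each library left out. Dnajb13 and Gcnt7 met the rule in both groups. The difference was 1.48 ± 0.30 at Dnajb13 over Ucp2 and 1.40 ± 0.39 at Gcnt7 over Rtf2 (1.03 to 1.61 with each library left out). In the reverse direction Fdft1 differed from Ctsb by −0.96 ± 0.15 (adjusted p = 0.000731), and this call held with each library left out. Masp2 differed from Tardbp by −0.89 ± 0.22 (−1.05 to −0.70 with each library left out) and Tmem132a from Slc15a3 by −0.40 ± 0.10 (−0.49 to −0.35). The calls at Xrcc3, Gcnt7, Masp2 and Tmem132a did not. Without FTY720_LPS replicate 2 all 4 were lost. The calls at Masp2 and Tmem132a also ended without FTY720 replicate 1 or 2, at Tmem132a and Gcnt7 without FTY720_LPS replicate 1, and at Gcnt7 without FTY720 replicate 1 or 3 or FTY720_LPS replicate 3.

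**Figure D5:**
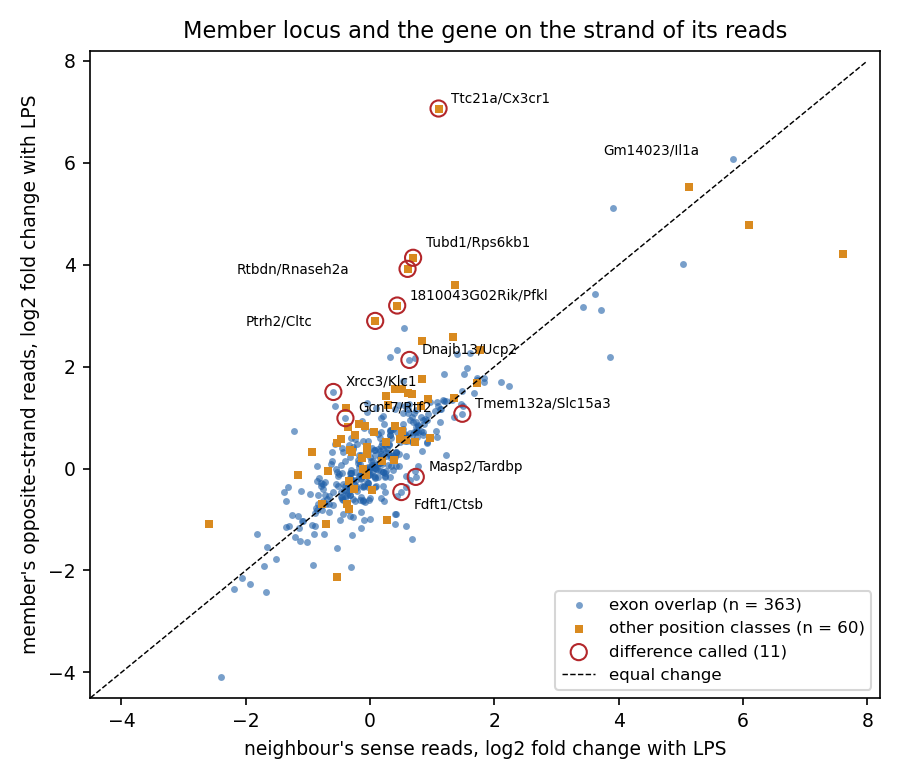
Each point is a locus, with the log2 fold change of its neighbour's sense reads on the x axis and of its own opposite-strand reads on the y axis; circles are the 363 loci with an exon overlap and squares the 60 of other classes. Most lie near the dashed line of equal change, Gm14023 with Il1a at its upper end, and red rings mark the 11 loci where the difference was called.

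At 15 loci no gene lay on the reads' strand within 10 kb, and 6 of them rose, beside 16.3% of all rows, namely Mir1198, Il10, Adamtsl4, Xcr1, Cecr2 and Klrg2. The last 4 lie outside the naming rule. Il10 and Cecr2 met the rule for entry only through the LPS group, which builds in a rise. Adamtsl4, a gene of the extracellular matrix, held 9, 7 and 9 reads with FTY720 and 36, 42 and 34 with LPS, a log2 fold change of 2.68 ± 0.31 (edgeR adjusted p = 3.09e-12). On the reads' strand Mcl1, an anti-apoptotic BCL2 family gene, ends 13025 bp before it and had 0.95 ± 0.10. Xcr1, a chemokine receptor gene, held 3, 5 and 5 and then 12, 19 and 13 reads, with 2.26 ± 0.44 (adjusted p = 1.91e-05).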

How the data were processed

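RNA was ribosome-depleted and sequenced as strand-specific libraries with random primers, per the labels' protocols. The authors deposited raw read counts per gene symbol in 3 columns (strandless and each strand), and, per the submitters' processing notes, worked with mm10 and with STAR 2.5.1, Trimmomatic 0.33, CASAVA 1.8.2 and DESeq2. Which annotation was counted: not given in the sources used here. Only uniquely mapped reads enter STAR's counts, so reads shared by near-identical copies are missing. The column with most gene reads was taken as sense. Rows naming no gene stayed out. In the sense column they held 24.4% to 27.0% of reads unmapped, 7.69% to 8.15% multimapping and 0.0748% to 0.114% ambiguous. A further 42.2% to 44.5% lay in no exon on their own strand, a class that takes in opposite-strand reads.

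Opposite-strand counts of all 2022 rows with at least 20 such reads were tested with edgeR 4.0.16 (R 4.3.3, quasi-likelihood) with effective library sizes from TMM factors of the sense counts. P-values were adjusted by Benjamini-Hochberg over all rows tested (threshold 0.05), and each SE was taken from the fold change and the F statistic. The ratio of strands was tested as an interaction over 12 columns with a term per library, and sense counts in 10124 genes. Alternatives used limma 3.58.1 and DESeq2 1.42.0. Between replicates, counts differed beyond sampling noise in every pair. A count of 0 allows up to 3 reads (0.868 to 1.23 CPM per library); floors and intervals cover counting error only, as reads carry no molecular identifiers.

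Loci, lists and tests were chosen with earlier results of these data known. Named were the 10 loci with most opposite-strand reads, 10 loci at each extreme of fold change among those called with groups that do not overlap, the 5 smallest interaction p-values, and loci that are or neighbour an LPS response gene; 34 in all, of which 1 is not reported here.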

Additional observations from a re-analysis of the deposited data

How the results depend on the processing

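The 513 loci became 784 with a minimum of 10 opposite-strand reads and 294 with 50. Their opposite-strand reads were 0.397% and 0.485% of all sense gene reads with FTY720 and with LPS; without the 3 ribosomal rows these shares were 0.726% and 0.816%, and 30.7% and 32.6% of all opposite-strand reads. All 2022 rows gave 329 higher and 44 lower calls. Higher calls numbered 182 with opposite-strand TMM factors, 155 with total sense reads, 196 with DESeq2, 191 with edgeR's own filter (569 rows tested) and 204 with at least 50 reads (698 rows); lower calls numbered 110 with opposite-strand TMM factors, 18 with DESeq2 and 27 with no filter. Among the loci, higher calls numbered 64 with opposite-strand TMM factors and 54 with total sense reads, and lower calls 59 with opposite-strand TMM factors, 13 with DESeq2 and 18 with no filter. Opposite-strand TMM factors turned the sign at Tsix (-0.154) and Pltp (-0.0742), and total sense reads at Tsix (-0.0671), none of them called; the cause of these changes was not tested.

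Leaving out each library in turn gave 97 to 106 higher and 21 to 28 lower calls among the loci, 28 to 42 strand ratio calls (49 with all libraries) and 7 to 11 neighbour differences (11), with the fewest without FTY720 replicate 3 and FTY720_LPS replicate 2. Same-numbered libraries of the groups did not deviate together (correlations of −0.0745 to −0.0030), so the numbers do not pair them. A fit with the replicate number as a block gave 108 higher and 30 lower calls among the loci. On neither strand did any library correlate best with the library of its own number. Of the alternative values for named loci, 460 kept direction and side of the threshold, 27 lost the call, 2 gained it and 3 changed sign; DESeq2 gave no adjusted p for 2 named loci and for 40 of all loci. With a median of 59 reads per locus, counting error limits what could be called.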
